A study of Homo sapiens with 4 samples.

Results

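The genes described here are 7 that make arginine, break it down or set the supply of polyamines: ASS1, ASL, ARG2, AGMAT, AMD1, AZIN1 and AZIN2. They were chosen by name for their known roles, with earlier results of these data known. All 7 of 7 were found among the 2864 genes with values in the table used here, an alphabetical stretch of gene names. RNA was sequenced from A375, a human melanoma cell line described as wild type in the labels, in 4 conditions with 1 library each. The study addressed melanoma with mutated BRAF, so the label should not be read as the BRAF genotype. A375P was the parental culture without treatment, and A375R was a single vemurafenib-resistant strain raised from A375 by escalating doses and kept under vemurafenib, an inhibitor of the BRAF kinase. A375+DMSO was A375 given the solvent DMSO at 1‰ for 48 h, and A375+VEM was A375 given 2 μM vemurafenib for 48 h. All were grown in the same medium with fetal bovine serum. The values are read counts and TPM, which corrects the count for gene length and brings every library to one total. With 1 library per condition differences could not be held against replicate error, and p-values are not given.

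Arginine is rebuilt in cells from citrulline in 2 steps. Argininosuccinate synthase (ASS1) joins citrulline to aspartate, and argininosuccinate lyase (ASL) splits the product into arginine and fumarate. Arginases turn arginine into urea and ornithine, and ornithine decarboxylase turns ornithine into putrescine, the first polyamine. AMD1 decarboxylates S-adenosylmethionine, which supplies the aminopropyl groups that turn putrescine into spermidine and spermine. Antizyme inhibitors (AZIN1, AZIN2) resemble ornithine decarboxylase and bind antizyme, the protein that sends the decarboxylase for degradation. Many melanomas are known to express little ASS1 and to depend on arginine from outside the cell.

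The counts over the 2864 genes summed to between 1891215 and 2054277 per library, a sum that falls short of the full depth. The 7 pigment cell or melanoma genes checked summed to a TPM of 181 to 739. AXL, a receptor kinase typical of dedifferentiated melanoma, made up most of that sum at a TPM of 92.4 to 659. Of the 7, BIRC7 reached a TPM of at most 1.66 and ABCB5 one of at most 0.0978. The markers of myeloid and B cells (AIF1, BTK, BLK) summed to a TPM of at most 0.641. The muscle genes ACTA1 and ACTN2 summed to at most 4.33, and the epithelial gene AGR2 was at most at 0.382. Of 4 genes typical of liver, the tissue with the full urea cycle, ALB was at a TPM of 46.4 to 64.5 in the 4 libraries, APOA1 at 7.34 to 10.0 and APOB at 1.64 to 1.88, whereas ARG1, the liver arginase, was the exception at 0.334 to 0.842. The part of these marker levels in the results was not tested. The usual melanocyte genes such as MITF, MLANA and PMEL, and ODC1, were not analysed here.

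A375P had the lowest ASS1, ARG2 and AZIN2 and the highest AMD1. The lowest ASL, AMD1 and AZIN1 were in A375+VEM, where ASL was close to its level in A375P. In A375P, AMD1 had a TPM of 116 and AZIN1 one of 112, a ratio whose 95% interval of 0.988 to 1.08 includes 1. ASL, ARG2, AZIN2 and ASS1 followed at 23.2, 19.1, 6.95 and 4.17, and each step between neighbours exceeded its counting interval. In the other 3 libraries AZIN1 was first, at a TPM of 67.5 to 130. By their own rows, neighbours whose levels could not be told apart at this depth were ARG2 and ASL in A375R and in A375+DMSO, ASS1 and AZIN2 in A375R, and ARG2 and AMD1 in A375+VEM. AGMAT was last in all 4 libraries, at a TPM of 0.119 to 0.592. All intervals are exact 95% intervals on reads (Clopper-Pearson for ratios, Poisson for levels) and cover counting error only.

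**Figure D1:**
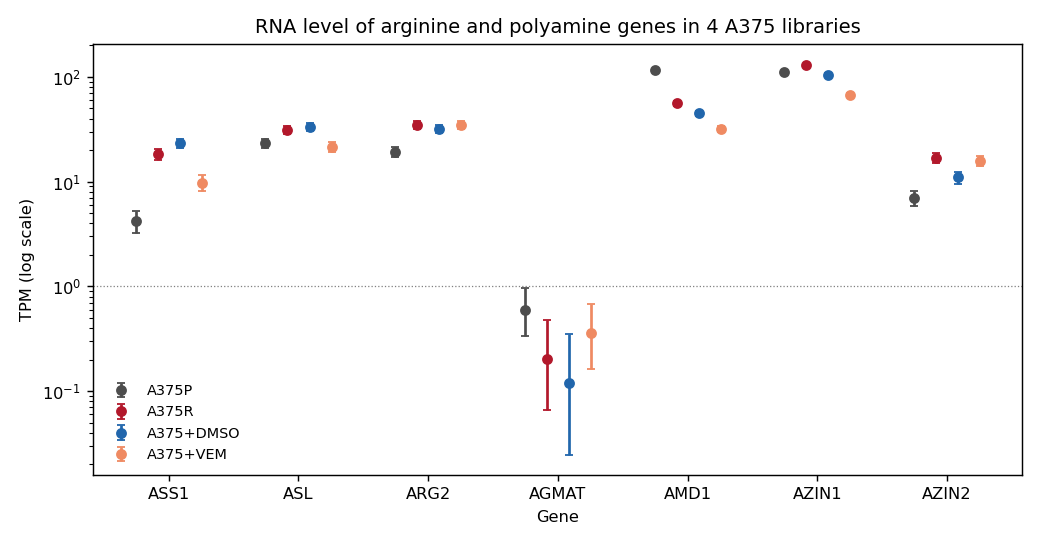
TPM of the 7 genes on a log axis in A375P, A375R, A375+DMSO and A375+VEM, 1 point per library, with exact 95% Poisson intervals and a dotted line at a TPM of 1. ASS1 was lowest in A375P at 4.17, AMD1 was highest there at 116, and AGMAT stayed below the line in all 4 libraries.

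ASS1 differed by 5.57-fold between the lowest and the highest TPM, the widest range of the 7 genes by their own rows. With the reads of its pseudogenes added the range was 3.35-fold, below the 3.54-fold of AMD1 treated in the same way and the 4.98-fold of AGMAT, which rests on few reads. In the coordinates of the authors' table, whose build is hg19 according to the submitters' processing notes, ASS1 maps to the plus strand of chromosome 9, between 133320094 and 133376661. Its reads numbered 66 with A375P, 260 with A375R, 343 with A375+DMSO and 143 with A375+VEM, which gave TPM values of 4.17, 18.2, 23.2 and 9.74. A375P was therefore low, A375R and A375+DMSO were high, and A375+VEM lay between them without overlap of its counting interval with theirs. A375R was 4.36-fold above A375P (95% interval 3.32 to 5.80). A375+VEM was at 0.420 of A375+DMSO (95% interval 0.343 to 0.512). The 2 libraries without vemurafenib differed by more than either pair, since A375+DMSO was 5.57-fold above A375P (95% interval 4.27 to 7.36). Consequently the direction in both pairs turned with the control. A375R was at 0.783 of A375+DMSO (95% interval 0.664 to 0.923), and A375+VEM was 2.34-fold above A375P (95% interval 1.73 to 3.18). The solvent, the culture and the library cannot be told apart in this design.

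ASS1 has many processed pseudogenes, whose reads can be hard to separate from its own. The table lists 14, of which 6 had a read in any library. Their reads summed to 57 with A375P, 29 with A375R, 41 with A375+DMSO and 52 with A375+VEM, which was 46.3% of the reads of ASS1 and its pseudogenes together in A375P and 10.0% in A375R. Most came from ASS1P12 on chromosome 9, with 43, 21, 32 and 35 reads in the same order. These counts were highest in the libraries where ASS1 was lowest. With pseudogene reads added to those of ASS1, A375R was 2.60-fold above A375P (95% interval 2.10 to 3.24) and A375+VEM was at 0.511 of A375+DMSO (95% interval 0.428 to 0.609). Both directions were the same with and without them, and the sizes were smaller with them. A375+DMSO was then 3.35-fold above A375P (95% interval 2.72 to 4.13). With these reads, ASS1 and AZIN2 could not be told apart in A375P, at a ratio of 1.12 (95% interval 0.874 to 1.43), or in A375+VEM, at 0.850 (95% interval 0.707 to 1.02). In A375R, where their own rows could not be told apart, the ratio was then 1.20 (95% interval 1.02 to 1.41).

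The promoter of ASS1 is shown because ASS1 passed 1.5-fold in opposite directions in the resistant and the acute pair. RefSeq has 2 start sites for it in the promoter table used here, and the 250 bases before the downstream one (GRCh38.p14, chr9:130444711-130444960, plus strand) are given with an E-box (CACGTG) and a TATA box (TATAA, found on both strands and overlapping here) in capitals.
ASS1: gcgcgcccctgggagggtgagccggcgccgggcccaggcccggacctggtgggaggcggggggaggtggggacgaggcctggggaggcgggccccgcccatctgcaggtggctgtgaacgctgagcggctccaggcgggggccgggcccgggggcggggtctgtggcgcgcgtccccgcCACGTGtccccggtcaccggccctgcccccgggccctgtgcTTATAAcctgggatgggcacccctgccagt
The E-box lies 71 to 66 bases before the start and the TATA box 30 to 25 bases before it. The window of the upstream start holds neither. Among 35116 windows of 250 bases before RefSeq starts, 6.34% hold CACGTG and 18.9% hold TATAA on either strand. A match in letters is a description and not a binding site.

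ASL, the enzyme after ASS1, varied less. It maps to the plus strand of chromosome 7, between 65540776 and 65558330 (hg19). Its reads numbered 422 with A375P, 508 with A375R, 565 with A375+DMSO and 362 with A375+VEM, at TPM values of 23.2, 31.0, 33.3 and 21.5. A375R and A375+DMSO were the higher libraries and A375P and A375+VEM the lower ones. Within each of these sets the ratio had an interval that included 1, from 0.822 to 1.05 for A375R against A375+DMSO and from 0.802 to 1.07 for A375+VEM against A375P. A375R was 1.33-fold above A375P (95% interval 1.17 to 1.52). A375+VEM stood at 0.645 of A375+DMSO (95% interval 0.564 to 0.738), which is past 1.5-fold, a ratio of 0.667, with an interval that spans it. The pseudogene ASLP1 had 43, 28, 19 and 49 reads in the same order of libraries, again highest where the gene was lowest. With its reads added the ratio in the acute pair was 0.709 (95% interval 0.623 to 0.805), which is not past 1.5-fold. The promoter table gave 1 window for ASL, without an E-box, CRE or TATA box as spelled here.

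The balance between the 2 synthesis enzymes can be read within each library, free of the scaling between libraries. The TPM of ASS1 was 0.179 of that of ASL in A375P (95% interval 0.136 to 0.233). It was 0.587 with A375R, 0.696 with A375+DMSO and 0.453 with A375+VEM, with intervals from 0.371 to 0.797 over these 3. The interval of A375P overlapped none of them. With pseudogene reads added to both genes, the ratio was 0.303 with A375P (95% interval 0.247 to 0.371), and 0.618 with A375R, 0.754 with A375+DMSO and 0.544 with A375+VEM. The value of A375P moved by more than 1.5 times, and its interval was still below those of the other 3, which ran from 0.456 to 0.859.

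ARG2, the mitochondrial arginase, was the arginase expressed in these cells. It maps to the plus strand of chromosome 14, between 68086579 and 68118437 (hg19). Its reads numbered 325 with A375P, 529 with A375R, 505 with A375+DMSO and 544 with A375+VEM, at TPM values of 19.1, 34.5, 31.9 and 34.6. A375P was low and the other 3 were close to each other. A375R was 1.80-fold above A375P (95% interval 1.57 to 2.08), and A375+DMSO was 1.67-fold above it (95% interval 1.45 to 1.92). A375+VEM was at 1.08 of A375+DMSO (95% interval 0.959 to 1.23), so a difference was not detectable at this depth in the acute pair. ARG1, the other arginase, had 7, 7, 4 and 10 reads in A375P, A375R, A375+DMSO and A375+VEM. ARG2 was thus at 19.1 TPM or more in every library, whereas ARG1 was below 1.

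The promoter of ARG2 is given because it holds a pair of full cAMP response elements (CRE, TGACGTCA), in capitals, in the 250 bases before its RefSeq start (GRCh38.p14, chr14:67619670-67619919, plus strand).
ARG2: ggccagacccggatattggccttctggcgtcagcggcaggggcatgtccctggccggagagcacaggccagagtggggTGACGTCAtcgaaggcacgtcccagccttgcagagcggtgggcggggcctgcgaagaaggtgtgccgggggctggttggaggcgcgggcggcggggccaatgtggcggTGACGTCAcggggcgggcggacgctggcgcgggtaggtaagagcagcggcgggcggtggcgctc
The elements lie 172 to 165 and 64 to 57 bases before the start. Of the 35116 windows, 1.65% hold TGACGTCA. None of the windows of ASS1, ASL, AMD1 and AGMAT does, which says only that these letters are not in them.

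AGMAT is named for the hydrolysis of agmatine, a product of arginine, to putrescine. It maps to the minus strand of chromosome 1, between 15898194 and 15911605 (hg19). Its reads numbered 16 with A375P, 5 with A375R, 3 with A375+DMSO and 9 with A375+VEM, and did not reach a TPM of 1 in any library. A375P had the most reads and A375+DMSO the fewest. A375R stood at 0.346 of A375P (95% interval 0.0991 to 0.988). The acute pair gave a ratio of 3.02, whose interval ran from 0.754 to 17.3. With so few reads AGMAT was left out of the counts of changed genes.

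AMD1 went the other way from ASS1 in each comparison with A375P, although both were lower in A375+VEM against A375+DMSO. It maps to the plus strand of chromosome 6, between 111135824 and 111216916 (hg19). Its reads numbered 3584 with A375P, 1567 with A375R, 1296 with A375+DMSO and 915 with A375+VEM, at TPM values of 116, 55.9, 44.8 and 31.8. A375P was high, and no counting interval of a level overlapped that of another library. A375R was at 0.484 of A375P (95% interval 0.456 to 0.514). A375+VEM was at 0.711 of A375+DMSO (95% interval 0.653 to 0.774), which is lower by less than 1.5-fold. A375+DMSO was at 0.388 of A375P (95% interval 0.363 to 0.413), so again the solvent control differed from the parental culture by more than either pair. Against A375+DMSO, A375R was 1.25-fold higher (95% interval 1.16 to 1.35), which turns the direction of the resistant pair. A375+VEM was the lowest against both controls, at 0.276 of A375P (95% interval 0.256 to 0.296). The table lists 3 pseudogenes of AMD1, and their reads, all from AMD1P3, were between 0.803% and 3.21% of the reads of AMD1 and its pseudogenes together.

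The promoter of AMD1 is shown beside those of ASS1 and ARG2 because AMD1 was lower against A375P where those genes were higher. The 250 bases before 1 of its RefSeq starts (GRCh38.p14, chr6:110874535-110874784, plus strand) hold a TATA box (TATAA, in capitals) 29 to 25 bases before the start.
AMD1: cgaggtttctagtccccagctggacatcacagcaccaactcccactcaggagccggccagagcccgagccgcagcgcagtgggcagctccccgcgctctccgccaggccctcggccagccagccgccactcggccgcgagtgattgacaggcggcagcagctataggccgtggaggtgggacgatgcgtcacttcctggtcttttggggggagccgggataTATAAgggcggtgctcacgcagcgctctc
This window holds no CACGTG and no TGACGTCA. A near-identical window of AMD1 is also listed, and the window of its start further upstream (chr6:110814367-110814616) holds no TATAA. None of the windows of the 5 genes found in the promoter table holds the amino acid response element searched (TGATGNAA, either strand), which 3.14% of all windows hold. AZIN1 and AZIN2 were not among these 5.

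The antizyme inhibitors differed from each other. AZIN1 maps to the minus strand of chromosome 8, between 103838530 and 103876428 (hg19) and was among the more abundant genes, above 85.4% to 92.8% of the genes that reached a TPM of 1. Its reads numbered 4201 with A375P, 4406 with A375R, 3650 with A375+DMSO and 2350 with A375+VEM, at TPM values of 112, 130, 104 and 67.5. A375+VEM was low and the other 3 lay within 1.25-fold of each other. A375+VEM was at 0.648 of A375+DMSO (95% interval 0.615 to 0.683) and at 0.604 of A375P (95% interval 0.574 to 0.635). The interval against A375+DMSO spans 1.5-fold, a ratio of 0.667, and the one against A375P does not. A375R was 1.16-fold above A375P (95% interval 1.11 to 1.21). Of the 6 genes tested, AZIN1 was the only one that was lower past 1.5-fold in A375+VEM against both libraries without vemurafenib. With the libraries scaled to a median ratio of 1, AMD1 was too, at a log2 ratio of -0.60 against A375+DMSO. The antisense lncRNA AZIN1-AS1, which does not overlap AZIN1 in the authors' table, had 21, 16, 25 and 42 reads in the same order of libraries.

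AZIN2, formerly taken for an arginine decarboxylase, maps to the plus strand of chromosome 1, between 33546714 and 33586132 (hg19). Its reads numbered 153 with A375P, 334 with A375R, 225 with A375+DMSO and 319 with A375+VEM, at TPM values of 6.95, 16.8, 11.0 and 15.6. A375P was low, A375R and A375+VEM were high, and A375+DMSO lay between them. A375R was 2.42-fold above A375P (95% interval 1.99 to 2.95) and 1.53-fold above A375+DMSO (95% interval 1.29 to 1.82). A375+VEM was 1.43-fold above A375+DMSO (95% interval 1.20 to 1.70) and 2.25-fold above A375P (95% interval 1.85 to 2.75). AZIN2 was thus the only gene of the 7 that was higher in both libraries with vemurafenib against either control with an interval above 1 each time, although 1.43 is short of 1.5-fold. Relative to AZIN1, the TPM of AZIN2 was 0.0622 with A375P, 0.129 with A375R, 0.105 with A375+DMSO and 0.232 with A375+VEM. The last ratio had a 95% interval of 0.205 to 0.261, above those of the other 3 libraries.

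**Figure D2:**
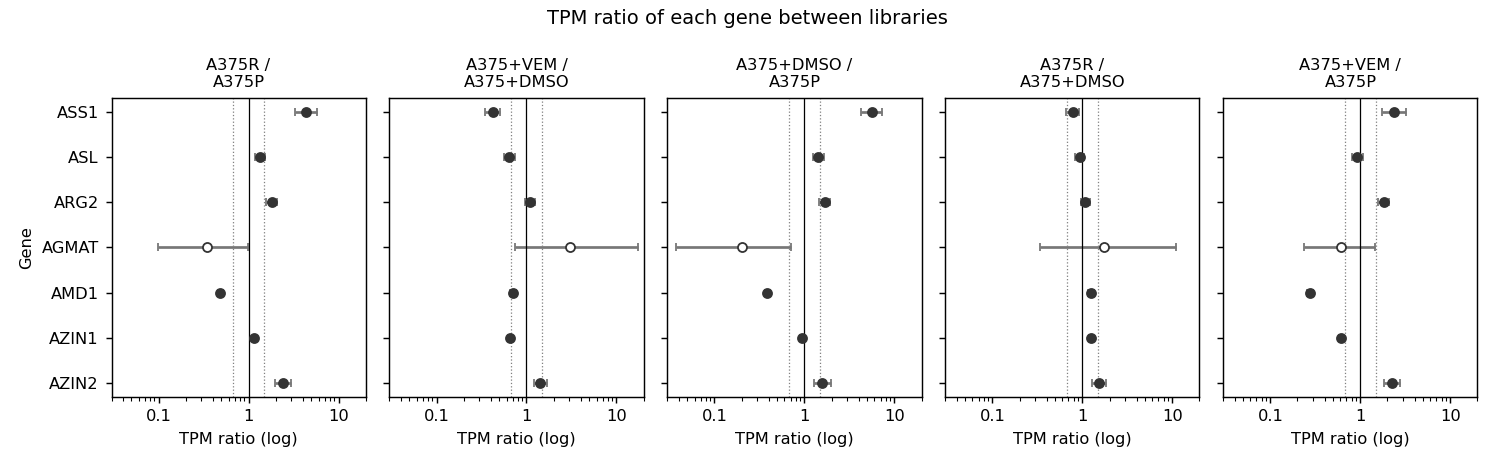
Ratio of TPM between 2 libraries for the 7 genes on a log axis, in 5 comparisons, with exact 95% intervals on reads. Solid lines mark a ratio of 1, dotted lines 1.5-fold in either direction, and open symbols AGMAT, which was below a TPM of 1. For A375R, ASS1 was at 4.36 relative to A375P and at 0.783 relative to A375+DMSO.

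For the question of the resistant state, A375R was compared with A375P. Genes that reached a TPM of 1 in either library were tested, and those with a ratio of (TPM + 0.1) past 1.5-fold were counted as changed. By this rule 4 of the 6 genes tested were past it, against 44.3% of all 1689 genes tested. ASS1, ARG2 and AZIN2 were higher and AMD1 was lower, while 26.8% of all genes tested were higher and 17.5% lower. The median log2 ratio over the 6 genes was 0.63, beside 0.10 over all genes tested. At 2-fold 3 of 6 were changed, beside 22.2% of all genes. With 6 genes, the count is too small to set them apart from that share. Against A375+DMSO, 1 of 6 was past 1.5-fold in A375R, AZIN2, beside 20.5% of 1702 genes in either direction and 10.5% higher. A change of RNA per cell and a change in the share of cells that hold the RNA cannot be told apart in such bulk libraries.

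For the acute response, A375+VEM was compared with A375+DMSO. ASS1, ASL and AZIN1 were lower past 1.5-fold and no gene of the 6 was higher, so 3 of 6 were changed beside 46.2% of 1784 genes. Over all genes tested 19.7% were lower and 26.5% higher. The median log2 ratio was -0.56 for the 6 genes and 0.11 over all genes tested. At 2-fold ASS1 alone of the 6 was changed, beside 26.4% of all genes. Against A375P, 5 of 6 were past 1.5-fold in A375+VEM, with ASS1, ARG2 and AZIN2 higher and AMD1 and AZIN1 lower, beside 62.1% of 1782 genes in either direction, 36.9% higher and 25.3% lower.

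Between the controls, 4 of 6 genes were past 1.5-fold in A375+DMSO against A375P, beside 45.7% of 1720 genes. ASS1, ARG2 and AZIN2 were higher and AMD1 was lower, where 26.8% and 18.9% of all genes were. At 2-fold ASS1 and AMD1 were left, beside 26.0% of all genes. These are the same 4 genes and directions as in A375R against A375P, and both comparisons share A375P, so neither is evidence for the other. The median log2 ratio was 0.58 for the 6 genes and 0.09 over all genes tested.

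**Figure D3:**
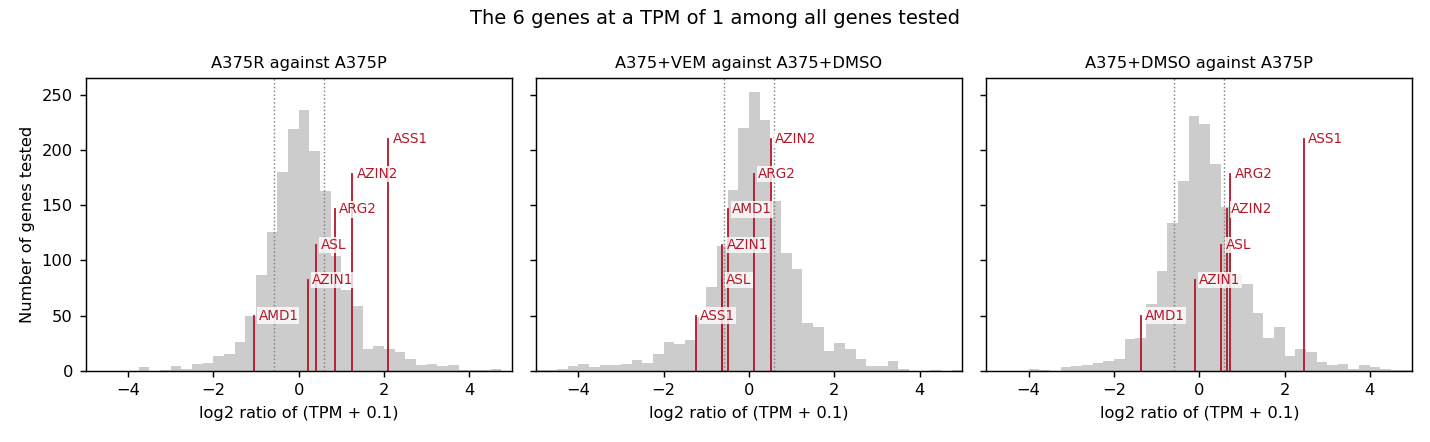
Histograms of the log2 ratio of (TPM + 0.1) over all genes tested in 3 comparisons, with the 6 genes at a TPM of at least 1 marked by red lines whose height only separates the names. Dotted lines mark 1.5-fold, and 1, 9 and 2 genes beyond 5 in either direction are not drawn. ASS1 was at 2.10, -1.24 and 2.45 from left to right.

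The share of each gene in the summed TPM of the 7 shows how the balance shifted. The sum came to 281 for A375P, 286 for A375R, 248 for A375+DMSO and 181 for A375+VEM. AMD1 made up 41.1% of it in A375P and 17.6% to 19.5% in the other 3 libraries, and ASS1, by its own row, 1.48% in A375P and 5.38% to 9.34% in the others. AZIN1 held between 37.3% and 45.3%. ARG2 reached its highest share, 19.1%, in A375+VEM, where the sum was lowest. Its TPM there, 34.6, was close to the 34.5 of A375R, where its share was 12.0%. The TPM of AMD1 was 1.03 times that of AZIN1 in A375P (95% interval 0.988 to 1.08), and only 0.431 of it for A375R, 0.430 for A375+DMSO and 0.472 for A375+VEM.

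The neighbouring enzymes and transporters were taken from a list of 22 genes, all in the table. In A375R against A375P, 15 were tested, and 4 were higher past 1.5-fold and 3 lower, beside 26.8% and 17.5% of all genes. In A375+VEM against A375+DMSO, 16 were tested, with 5 higher and 3 lower, beside 26.5% and 19.7%. In A375+DMSO against A375P, 15 were tested, with 5 higher and 1 lower, beside 26.8% and 18.9%. The medians of the log2 ratio were 0.20, 0.02 and 0.40, where those over all genes tested were 0.10, 0.11 and 0.09. Counts this close to the general shares do not set the list apart.

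Among 7 enzymes of aspartate and asparagine, ASNS stood out. Aspartate is the partner of citrulline in the ASS1 reaction. Of these enzymes, 1 was higher and 1 lower of 5 tested in the resistant pair, 2 were higher and 2 lower of 6 in the acute pair, and 2 were higher of 5 between the controls. Past 1.5-fold in either direction were 44.3%, 46.2% and 45.7% of all genes in these comparisons, and so few enzymes cannot be set apart from that. Asparagine synthetase (ASNS) makes asparagine from aspartate and is a known target of the amino acid response. Its reads numbered 5826 with A375P, 7645 with A375R, 8711 with A375+DMSO and 458 with A375+VEM. It was high in the first 3 libraries and low in the last. A375+VEM was at 0.0529 of A375+DMSO (95% interval 0.0481 to 0.0582), and its log2 ratio of -4.23 was the lowest of the list. ADSL, which cleaves adenylosuccinate in purine synthesis by a reaction like that of ASL, was at 0.582 in the same pair (95% interval 0.536 to 0.631). Against A375P, ADSL in A375+VEM was at 0.823 (95% interval 0.755 to 0.897), which is within 1.5-fold. ADSSL1, an adenylosuccinate synthase, was higher in all 3 comparisons, by 2.98-fold in A375R against A375P, 2.35-fold in the acute pair and 4.38-fold between the controls. The first and the last of these share A375P, where ADSSL1 had 23 reads. Against A375+DMSO, ADSSL1 in A375R was lower, at 0.681 (95% interval 0.486 to 0.949). ASPA, which splits N-acetylaspartate, had 24 reads in A375+VEM, 1 in A375+DMSO and 0 in the other 2 libraries. Its ratio in the acute pair was 24.2 with an interval from 3.94 to 994.

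Of the genes that break down or carry polyamines, 3 of 6 were tested in each comparison. ATP13A2, a lysosomal polyamine exporter, had a TPM of 44.2 with A375P, 78.4 with A375R, 66.6 with A375+DMSO and 38.2 with A375+VEM. It was 1.78-fold above A375P in A375R (95% interval 1.67 to 1.89) and at 0.572 of A375+DMSO in A375+VEM (95% interval 0.533 to 0.614). ATP13A3, a related polyamine transporter, had a TPM of 63.7, 41.7, 30.9 and 30.7 in the same order. Like AMD1 it was highest in A375P, and it did not differ detectably in the acute pair, with a ratio of 0.995 (95% interval 0.931 to 1.06). ALDH9A1, an aldehyde dehydrogenase that acts on aminobutyraldehyde from putrescine, was within 1.5-fold in all 3 comparisons. AOC1, the diamine oxidase, had at most 2 reads in any library.

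All 5 genes around S-adenosylmethionine and its salvage were tested, and 2 were higher and 1 lower in the resistant pair, 2 higher in the acute pair and 2 higher between the controls. These counts are near the shares over all genes, 44.3%, 46.2% and 45.7%. ADI1 and APIP belong to the salvage route that recycles the by-product of polyamine synthesis to methionine. ADI1 had a TPM of 27.8 with A375P, 14.6 with A375R, 21.2 with A375+DMSO and 44.3 with A375+VEM, so it was at 0.524 in the resistant pair (95% interval 0.471 to 0.582) and at 2.09 in the acute pair (95% interval 1.92 to 2.28). APIP had a TPM of 35.4, 53.8, 60.9 and 88.0 in the same order, lowest in A375P and highest in A375+VEM. AHCY, which hydrolyses S-adenosylhomocysteine, was within 1.5-fold in all 3 comparisons. Its relative AHCYL1 was 1.77-fold higher in A375R against A375P (95% interval 1.69 to 1.87). A375+DMSO was 2.06-fold above A375P for AHCYL1 (95% interval 1.96 to 2.17). The direction turned with the control, since A375R was at 0.860 of A375+DMSO (95% interval 0.824 to 0.898). AHCYL2 was 2.12-fold higher in A375+VEM against A375+DMSO (95% interval 1.89 to 2.37).

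Of the genes next to arginine and ornithine, ALDH18A1, which makes a precursor of proline and ornithine from glutamate, was within 1.5-fold in the 3 comparisons. ALDH4A1, which returns that precursor to glutamate, had a TPM of 11.6 with A375P, 9.63 with A375R, 15.4 with A375+DMSO and 27.2 with A375+VEM. It was 1.77-fold higher in A375+VEM against A375+DMSO (95% interval 1.57 to 1.99). AGXT2 had at most 2 reads in any library.

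**Figure D4:**
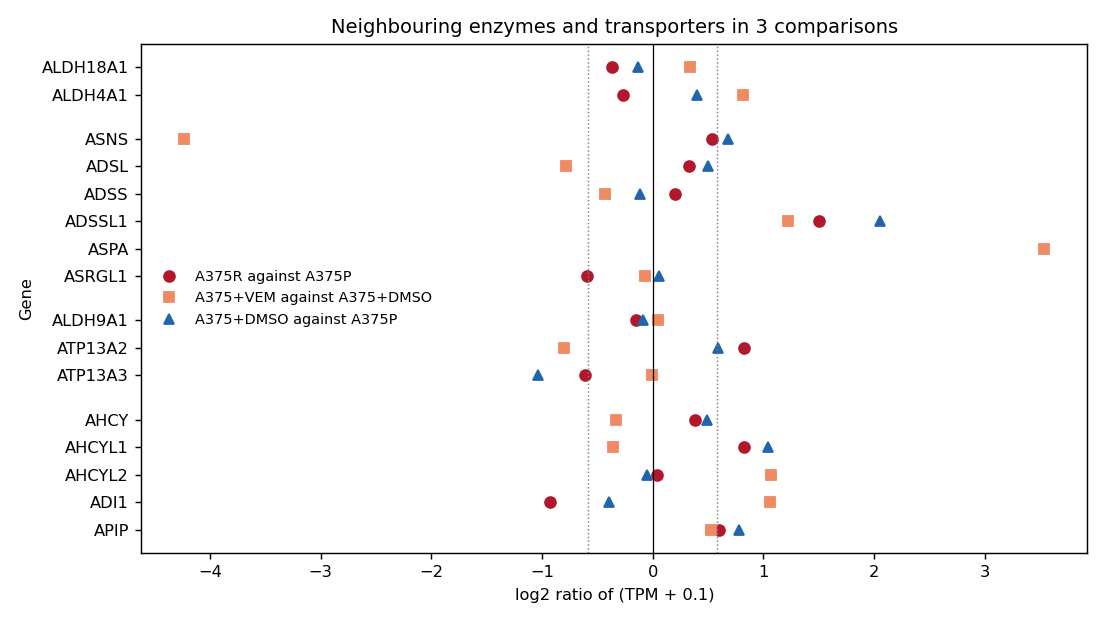
Log2 ratio of (TPM + 0.1) for the 16 genes of the list tested in at least 1 of 3 comparisons, grouped by role, with dotted lines at 1.5-fold. In the acute pair ASNS was at -4.23 and ADI1 at 1.06, while in the resistant pair they were at 0.54 and -0.93.

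The genes whose levels ran most like those of ASS1, AMD1 and AZIN2, the 3 of these genes with a TPM of at least 1 that varied over 2-fold, were found by the Euclidean distance between log2(TPM + 0.1) profiles centred on their mean over the 4 libraries, among 1816 other genes. For ASS1 they were C1orf145 at a distance of 0.233, ACSM3 at 0.463 and ABHD11 at 0.475. C1orf145 had a TPM of at most 1.34, so its profile rests on few reads. ACSM3 was low too, at a TPM of 0.509 to 2.42. For AMD1 they were AMER1 at 0.202, C12orf29 at 0.243 and ATAD1 at 0.253. ATAD1 had a TPM of 134 with A375P, 61.2 with A375R, 55.1 with A375+DMSO and 44.2 with A375+VEM. For AZIN2 they were AIM1 at 0.254, AEBP1 at 0.260 and C15orf52 at 0.281. With 4 libraries, a likeness of this kind is a description.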

How the data were processed

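Bulk RNA sequencing covered 4 conditions of A375 cells, each as 1 library, and sample titles gave the condition. The authors deposited whole-number read counts per gene without normalization. For the deposited TPM, the authors corrected counts for gene length and scaled them over the whole library. The submitters' processing notes list the build hg19 and the tools HISAT2, HISAT, TopHat2 and Bowtie2, while the counting program and any use of strand are not given in the sources used here. Only an alphabetical stretch of gene names was at hand, holding 2864 genes, and 1 incomplete row was dropped.

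Libraries were compared by ratios of (TPM + 0.1), a scale that understates changes of low genes, for genes reaching a TPM of 1 in either library, with 1.5-fold as the threshold. Ratios of single genes are of TPM without the 0.1. Their intervals at 95% are exact intervals on reads and cover counting error only. The count test planned for replicated designs was not used, since no condition has a replicate. The genes named were the 7 members, a list of 22 neighbours, pseudogene and antisense rows by name, and the 3 closest profiles of members at a TPM of at least 1 that varied over 2-fold. The members and lists were chosen with earlier results of these data known. Promoter windows are those of RefSeq on GRCh38.p14, and none of their coordinates were joined to the authors' table. The ratio step was tested on simulated data. Alternatives were a pseudocount of 0.01 or 1, a minimum TPM of 5 or none, median scaling, 2-fold as the threshold and the other control. Adding the reads of pseudogenes to those of their gene, or their TPM, each at its own length, was chosen after seeing the data. The software was matplotlib 3.10.9, scipy 1.17.1, numpy 2.4.6 and pandas 2.3.3 under Python 3.11.15.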

Additional observations from a re-analysis of the deposited data

Results flagged for a closer look

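ASS1 passed 1.5-fold upwards in the resistant pair and downwards in the acute pair. Its log2 ratio of (TPM + 0.1) was 2.10 for A375R relative to A375P and -1.24 for A375+VEM relative to A375+DMSO. This difference was not tested, since each rests on 1 library per condition. With the controls exchanged both signs turned, to -0.35 in A375R against A375+DMSO and 1.21 in A375+VEM against A375P. With the TPM of the pseudogene rows added the log2 ratios were 1.28 and -0.92. The part of the pseudogenes in the result beyond this was not tested.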

How the results depend on the processing

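Of 20 alternatives for the counts of changed genes, 16 stayed within 1.5 times the first count. With A375+DMSO as the control, 1 gene was past 1.5-fold in A375R where 4 had been, and with A375P as the control 5 were in A375+VEM where 3 had been. At a threshold of 2-fold, stricter by construction, 1 gene was left in the acute pair and 2 between the controls. For single genes, 3 of 86 alternatives turned the sign of a called value, all with the control exchanged. They were ASS1 in A375R, from 2.10 to -0.35, AMD1 in A375R, from -1.05 to 0.32, and ASS1 in A375+VEM, from -1.24 to 1.21, on the log2 scale. A further 20 alternatives moved a value outside its counting interval, 11 of them with the control exchanged, 4 with pseudogene TPM added, 4 with median scaling and 1 with a pseudocount of 1. Among these were calls lost with the other control, ARG2 in A375R from 0.85 to 0.11 and ASL in A375+VEM from -0.63 to -0.11. The cause was not tested. Scaling to a median ratio of 1, a shift of 0.11 in the acute pair, brought AMD1 past 1.5-fold there at -0.60, and took AZIN2 out in A375+DMSO against A375P at 0.56. With the TPM of ASLP1 added, ASL in the acute pair was at -0.39. No paired analysis was possible because each condition has 1 library. Depth limits AGMAT, with 3 to 16 reads.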
